A study of Mus musculus with 6 samples.

Results

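The presynaptic release machinery is the set of proteins that docks, primes and fuses synaptic vesicles, and 46 of its genes were examined in dopaminergic neurons of the mouse substantia nigra pars compacta (SNc). They were taken by symbol from a list of vesicle proteins, calcium sensors, priming factors, active zone scaffolds, SNARE proteins with their regulators, and the Rab3 cycle. All 46 were found among the 23337 gene symbols of the deposited table, and 45 reached a mean of 10 across the 6 libraries and were tested. The exception was Cplx3, a complexin known from retinal ribbon synapses. It had a value of 3.84 in Sox6- library 103 and 0 in the other 5 libraries.

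The study compared the transcriptomes of SNc dopaminergic neurons with and without Sox6, a transcription factor, by sequencing poly(A) RNA of sorted cells. Sox6+ neurons were sorted by GFP and Sox6- neurons by mCherry, with 3 libraries in each group, numbered 103, 825 and 1211 in both. All neurons came from adult mice of strain C57BL/6 whose genotype combined Sox6-FSF-Cre with Th-2A-Flpo and RC-Frepe. Flp recombinase is made under Th, the gene of tyrosine hydroxylase, and permits Cre from Sox6, and the RC-Frepe reporter turns from mCherry to GFP where both have acted. Such recombination is permanent, so the fluorescent label marks present or earlier expression. The labels do not say whether the libraries came from separate animals or how many were pooled, so p-values measure the spread between these libraries, which may be technical.

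A neuron releases transmitter when calcium enters an active zone. Scaffolds such as RIM, ELKS, Bassoon and Piccolo hold vesicles near calcium channels, Munc13 and CAPS proteins prime them, and the SNARE proteins fuse them under the control of synaptotagmins and complexins. Dopamine axons release at sparse sites, and RIM is known to be needed for evoked dopamine release in the mouse striatum. Values are read counts divided by a size factor for each library, and are called normalized counts. The 3 values of a group are given in the order 103, 825 and 1211. Levels of different genes are compared after division by the kilobases of annotated exon. Exceptions are sums over several genes, the part of a gene in such a sum, and statements of read depth, which use undivided values.

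Depth was similar in the 6 libraries, with 10397924 to 12952768 reads and 13429 to 15043 genes with a read. Sox6 itself had 841, 461 and 389 in the Sox6+ libraries, against 104, 18.1 and 36.2 in the Sox6- libraries. Sox6+ library 825 stood apart: its correlation of log2 values with the others was 0.754 to 0.845. The 14 dopaminergic markers, 13 or 14 of which had a read in every library, summed to 151650.0, 261891 and 245473 in the Sox6+ libraries and 63515, 143611 and 46449.7 in the Sox6- libraries. The 11 GABAergic markers, of which 2 to 6 had a read in the Sox6+ libraries and 7 to 10 in the Sox6- libraries, summed to 17826, 14.8 and 2341 in the Sox6+ libraries and 16178, 4536 and 15379.7 in the Sox6- libraries. The 15 markers of macrophages and microglia summed to 30009 in Sox6+ library 825, mostly Lyz2, and to between 18.1 and 77.9 in the other 5. Of the 8 tested, 7 had a log2 difference above 0, against 48.1% of all tested genes. Ptprc, Tyrobp and Fcer1g had reads in Sox6+ library 825 only. Mrc1 and P2ry12, 2 of the 8, had every Sox6+ library above every Sox6- library, where 7.86% of all tested genes did. Mrc1 had 35.5, 322 and 8.32 in the Sox6+ libraries, against 0, 3.02 and 0 in the Sox6- libraries. P2ry12 had 6.91, 26.2 and 31.4, against 0, 0 and 0.927. Astrocyte markers summed to 3341 to 4067 in the Sox6+ libraries and 4297 to 7437 in the Sox6- libraries, mostly Aldoc. Of the 4 tested astrocyte markers, 2 had a log2 difference above 0 (Slc1a2 and S100b) and 2 below (Slc1a3 and Aldoc). Gja1 and Gjb6 were at 0 in all 6 libraries. Oligodendrocyte markers summed to 275 to 2107 in the Sox6+ libraries and 264 to 392 in the Sox6- libraries, and endothelial markers to 8.32 to 21.7 and 2.01 to 28.8. All Sox6+ libraries thus lay above all Sox6- libraries in the dopaminergic sum, but this rested on Aldh1a1. Aldh1a1 had 45219, 55489 and 66305 in the Sox6+ libraries, against 19549, 11201 and 7227 in the Sox6- libraries. Without Aldh1a1, Sox6+ library 103 would lie below Sox6- library 825 in the sum. Of the 13 tested dopaminergic markers, 3 had every Sox6+ library above every Sox6- library, where 7.86% of all tested genes did. Th, Slc6a3 and Ddc overlapped. The GABAergic sums overlapped, with Vip alone at 10756 in Sox6+ library 103. The log2 difference was below 0 for all 8 tested GABAergic markers, with a median of -4.12, where 48.1% of all tested genes were above 0. Of the 8, 2 had every Sox6+ library below every Sox6- library, against 9.19% of all tested genes. These were the neuropeptide genes Sst and Npy. Several of the 8 GABAergic differences were enlarged by values of 0 in Sox6+ library 825. Gad1, at 0 there, had a log2 difference of -3.58 (95% interval -13.7 to 6.57), but a ratio of means of 0.56, Sox6+ over Sox6-. Gad2 was also at 0 there. Vip and Pvalb, at 0 in Sox6+ library 825, had the higher mean in Sox6+ neurons in spite of a log2 difference below 0. Sst had 1.97, 0 and 0 in the Sox6+ libraries, against 3958, 3164 and 5814 in the Sox6- libraries, with an adjusted p of 3.31e-05 by limma, and Npy had 0 in all Sox6+ libraries, against 10.6, 48.3 and 166 in the Sox6- libraries. The part of any of these marker sets in the differences given below was not tested. In bulk RNA, fewer cells of a type and less RNA per cell cannot be told apart.

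Sox6+ neurons had more RNA of the vesicle glycoprotein gene Sv2c and less of the priming factor gene Unc13c than Sox6- neurons, and these were the 2 members past the threshold of the main test. Sv2c averaged 862 ± 386 in Sox6+ neurons and 192 ± 8.29 in Sox6- neurons (SD, n = 3 each). Unc13c averaged 29.0 ± 14.3 in Sox6+ neurons and 309 ± 33.7 in Sox6- neurons (SD, n = 3 each). The main test was limma on log2(value + 1), 2-sided, with Benjamini-Hochberg adjustment over all 13175 tested genes at 0.05. It called 1 of 45 members higher in Sox6+ neurons, where it called 0.129% of all tested genes, and 1 of 45 lower, against 0.175% of all tested genes. At an unadjusted p under 0.05 in either direction, it was 16 of 45 members and 11.4% of all tested genes.

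The authors' deposited table, which holds their own DESeq2 test, gave 8 members higher in Sox6+ neurons at an adjusted p under 0.05 (Sv2b, Sv2c, Syt1, Syt7, Bsn, Cplx1, Cplx2 and Rab3c) and 3 lower (Syn2, Unc13c and Rab3b). Over all genes with an adjusted p in the authors' deposited table, 1.25% were higher and 1.58% lower in Sox6+ neurons. On the recovered reads, DESeq2 called the same 11 members, against 1.31% of all its tested genes higher and 1.66% lower. EdgeR's quasi-likelihood test on the same reads called 0 members, with 13 at an unadjusted p under 0.05, and it called 0.00759% of all genes higher and 0.038% lower. The number of members called thus depended on the test.

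Without reference to a test, 9 of 45 members had every Sox6+ library above every Sox6- library, where 7.86% of all tested genes did. A further 4 of 45 had every Sox6+ library below every Sox6- library, against 9.19%. A log2 difference above 0 was found for 28 of 45 members and for 48.1% of all tested genes. The median log2 difference was 0.11 over the members and -0.02 over all tested genes. The 95% interval of the difference lay within 2-fold in both directions for 18 of 45 members, against 43.6% of all tested genes. These 18 included Snap25, Vamp2, Syp, Syn1, Sv2a, Nsf, Rab3a, Pclo and Cadps, so for these genes a change of more than 2-fold lay outside the interval.

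**Figure D1:**
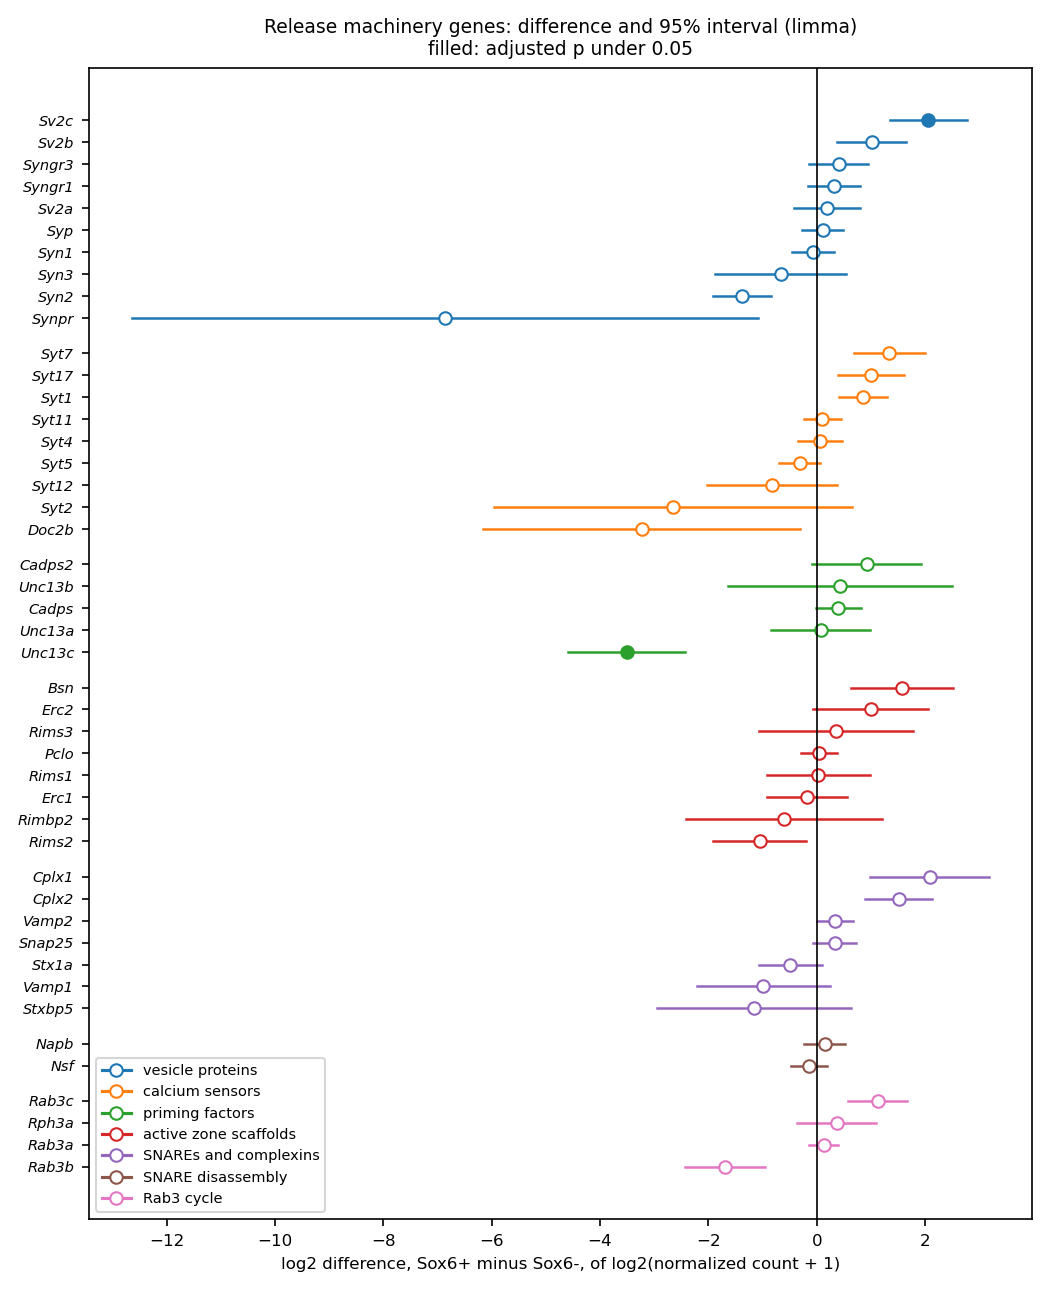
Log2 difference, Sox6+ minus Sox6-, of log2(normalized count + 1) for the 45 tested release genes, grouped by role, with points for the limma estimate and bars for its 95% interval. Filled points mark Sv2c, at 2.06, and Unc13c, at -3.51, the 2 genes with an adjusted p under 0.05, and the widest bar is that of Synpr.

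Among the 10 genes of vesicle proteins, Sv2c rose in Sox6+ neurons (1 of 10 past the threshold), 0 fell, and 4 had an unadjusted p under 0.05 by limma. EdgeR called 0 of the 10, and DESeq2 on the recovered reads called 3. Sv2c encodes a vesicle glycoprotein known for its expression in the basal ganglia and as one of the receptors of botulinum neurotoxin A. The gene (ENSMUSG00000051111.16, chromosome 13, 95954594 to 96132577, minus strand, GRCm38) had 510.0, 803 and 1274 in the Sox6+ libraries, against 195, 183 and 199 in the Sox6- libraries. All Sox6+ libraries lay above all Sox6- libraries, and the Sox6- libraries were close together while library 103 was the lowest of the Sox6+ group. Sv2c was 4.17-fold higher in Sox6+ neurons, a log2 difference of 2.06 (SE 0.32, 95% interval 1.35 to 2.77), with an adjusted p of 0.0368 by limma and 2.73e-07 in the authors' deposited table. Without Sox6+ library 825, the log2 difference was 2.06 and its adjusted p by limma 0.112, and leaving out each library in turn gave adjusted p-values from 0.00702 to 0.199, under the threshold only without Sox6+ library 103.

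The 300 bases around the annotated start of Sv2c (chr13:96132528-96132827, minus strand, RefSeq on GRCm38.p6) are shown because this was the member past the threshold in the Sox6+ direction, with CG dinucleotides in capitals.
Sv2c: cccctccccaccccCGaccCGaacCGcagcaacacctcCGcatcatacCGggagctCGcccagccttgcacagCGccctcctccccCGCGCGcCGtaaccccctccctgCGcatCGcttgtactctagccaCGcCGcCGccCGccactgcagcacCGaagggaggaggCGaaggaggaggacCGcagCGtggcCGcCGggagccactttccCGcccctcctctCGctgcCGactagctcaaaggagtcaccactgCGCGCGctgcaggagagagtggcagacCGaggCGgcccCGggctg
This window holds 32 CG dinucleotides, where the median of all 32851 promoter windows of the same length was 7 and that of the 45 windows of 35 members was 17. The other 11 members had no window in the table. The letters ACAAT, a core shared by many binding sites of SOX proteins, were searched on both strands. They are not in this window, and 31.0% of all windows and 10 of the 45 member windows hold them.

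The other SV2 genes had smaller differences, which were not tested against that of Sv2c. Sv2b, a paralog found in many excitatory neurons, had 583, 966 and 1120.0 in the Sox6+ libraries, against 553, 335 and 412 in the Sox6- libraries. Its groups did not overlap, with a log2 difference of 1.01 (SE 0.29), with an adjusted p of 0.225 by limma and 0.0413 in the authors' deposited table. Sv2a, the widespread paralog and the target of the antiseizure drug levetiracetam, ranged from 924 to 1995 in Sox6+ libraries and from 1105 to 1503 in Sox6- libraries, and the ranges overlapped.

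Synapsins tether vesicles to each other and to actin in the reserve pool. Syn2 (ENSMUSG00000009394.13, chromosome 6, 115134902 to 115282006, plus strand, GRCm38) had 1102, 764 and 807 in the Sox6+ libraries, against 2184, 1728 and 3126 in the Sox6- libraries. Every Sox6- library lay above every Sox6+ library, and Syn2 had a log2 difference of -1.37 (SE 0.24), with an adjusted p of 0.0588 by limma and 2.07e-05 in the authors' deposited table, just outside the threshold of limma. Syn1 had 1937, 2363 and 1838 in Sox6+ libraries and 1939, 1915 and 2614 in Sox6- libraries, and its groups overlapped. Syn3, the least abundant synapsin per kilobase, also overlapped, and its lowest value of 52.4 was in Sox6+ library 825.

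Synpr encodes synaptoporin, a relative of synaptophysin. It had 308, 0 and 12.9 in the Sox6+ libraries, against 3746, 629 and 2879 in the Sox6- libraries. The groups did not overlap, but the values within each group spread widely, and the adjusted p was 0.385 by limma and 0.339 in the authors' deposited table. The value of 0 in Sox6+ library 825 enlarges the log2 difference, which was -6.86 by limma and -4.50 by edgeR. The GABAergic genes Gad1, Gad2 and Slc32a1 summed to 6668, 5.69 and 1472 in the Sox6+ libraries and 11532, 1181 and 6300.1 in the Sox6- libraries, in the same order of libraries as Synpr within each group. Between the groups the order differed: Sox6+ library 103 lay above Sox6- libraries 825 and 1211 in this sum but below them in Synpr. Of the Sox6- libraries, 1211 was the highest in the GABAergic markers Sst, Npy and Vip, and 103 in Synpr. The part of GABAergic cells in the Synpr values was not tested. Synaptophysin itself, Syp, had 8454, 12170.4 and 10235 in Sox6+ libraries and 8049, 10451 and 9972 in Sox6- libraries, with a log2 difference of 0.11 (95% interval -0.26 to 0.48). Syngr1 and Syngr3, the synaptogyrins, had log2 differences of 0.32 and 0.41 with overlapping groups.

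The synaptotagmins and Doc2b were listed as calcium sensors, whether or not each binds calcium. They held no member past the threshold of limma (0 of 9, with 4 at an unadjusted p under 0.05, 0 called by edgeR and 2 by DESeq2 on the recovered reads). By comparison, 11.4% of all tested genes had an unadjusted p under 0.05, and DESeq2 called 1.31% of all its tested genes higher and 1.66% lower. Syt1, Syt7 and Syt17, 3 of the 9, nevertheless had all Sox6+ libraries above all Sox6- libraries, where 7.86% of all tested genes did. Syt1, the fast sensor and the synaptotagmin known to be required for synchronous dopamine release, had 11201, 13463 and 17046 in the Sox6+ libraries, against 7835, 9246 and 6009 in the Sox6- libraries. This gave a log2 difference of 0.85 (SE 0.20), with an adjusted p of 0.133 by limma and 0.00492 in the authors' deposited table. The slower, high-affinity sensor Syt7 had 324, 482 and 371 in the Sox6+ libraries, against 115, 191 and 161 in the Sox6- libraries, or a log2 difference of 1.34 (SE 0.29), with an adjusted p of 0.114 by limma and 0.00524 in the authors' deposited table. Syt17, an atypical synaptotagmin of the Golgi and vesicles, had 1056, 1232 and 1067 in the Sox6+ libraries, against 513, 858 and 389 in the Sox6- libraries. Its adjusted p was 0.207 by limma and 0.0667 in the authors' deposited table.

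The other genes of this list had overlapping groups. Syt4 and Syt11, which are not thought to trigger fusion, had log2 differences of 0.06 and 0.11, and Syt5, a calcium-binding synaptotagmin, had -0.31. Syt2, the fast sensor of hindbrain and spinal synapses, was low throughout, with 69.1, 0 and 3.70 in the Sox6+ libraries, against 45.1, 19.1 and 86.3 in the Sox6- libraries. Doc2b, a high-affinity sensor, had 15.8, 0 and 1.85 in the Sox6+ libraries, against 39.3, 15.1 and 60.3 in the Sox6- libraries. Both genes were at 0 in Sox6+ library 825 and both had a log2 difference below 0, at -2.65 and -3.23 with adjusted p-values of 0.522 and 0.403 by limma. Syt12 had 26.6, 45.5 and 54.5 in the Sox6+ libraries, against 80.6, 44.3 and 105 in the Sox6- libraries, with overlapping groups.

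Of the 5 priming factors, Unc13c fell in Sox6+ neurons, 0 rose, and the other 4 had overlapping groups. Limma called 0.175% of all tested genes lower, and 9.19% had every Sox6+ library below every Sox6- library. Unc13c encodes Munc13-3, a priming factor known mainly from cerebellar granule cells. The gene (ENSMUSG00000062151.13, chromosome 9, 73479422 to 73968966, minus strand, GRCm38) had 38.5, 12.5 and 36.0 in the Sox6+ libraries, against 332, 269.9 and 324 in the Sox6- libraries. Every Sox6+ library lay far below every Sox6- library, the Sox6- libraries were close together, and library 825 was the lowest of the Sox6+ group. Unc13c was 11.4-fold lower in Sox6+ neurons, a log2 difference of -3.51 (SE 0.48, 95% interval -4.59 to -2.43), with an adjusted p of 0.0278 by limma and 4.42e-10 in the authors' deposited table. Without Sox6+ library 825, the adjusted p by limma was 0.0379, and without Sox6+ library 103 it was 0.0115. Leaving out any of the other 4 libraries gave adjusted p-values from 0.0624 (without Sox6- library 825) to 0.195 (without Sox6- library 1211), outside the threshold. The GABAergic markers Sst and Npy, given above, were likewise below every Sox6- library in every Sox6+ library, whereas Gad1, Gad2 and Slc32a1 overlapped between the groups, and the part of GABAergic cells in the Unc13c values was not tested.

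The window around the start of Unc13c (chr9:73968988-73969287, minus strand, RefSeq on GRCm38.p6) is given as the counterpart of that of Sv2c, with CG dinucleotides in capitals.
Unc13c: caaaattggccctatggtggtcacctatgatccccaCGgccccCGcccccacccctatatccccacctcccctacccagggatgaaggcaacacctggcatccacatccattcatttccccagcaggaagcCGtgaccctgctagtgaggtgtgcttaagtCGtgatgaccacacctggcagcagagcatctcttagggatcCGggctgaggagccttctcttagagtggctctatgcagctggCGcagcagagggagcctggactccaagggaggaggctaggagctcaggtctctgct
It holds 6 CG dinucleotides, near the median of all windows, and the letters ACAAT are not in it on either strand. It was taken around the RefSeq start, and the GENCODE start of Unc13c, the higher coordinate given above, lies just downstream of it.

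The other Munc13 genes had overlapping groups. Unc13a, the main priming factor of central excitatory synapses, had 126, 69.5 and 151 in the Sox6+ libraries, against 81.5, 123 and 113 in the Sox6- libraries. Unc13b, or Munc13-2, had 61.2, 30.7 and 73.0 in the Sox6+ libraries, against 8.63, 143 and 42.7 in the Sox6- libraries, with its widest spread among the Sox6- libraries. Both CAPS genes, which prime dense-core and monoamine vesicles, were more abundant per kilobase. Cadps lay at 119.8 per kb in Sox6+ neurons and 92.5 per kb in Sox6- neurons, and Cadps2 at 264 per kb in Sox6+ neurons and 155 per kb in Sox6- neurons. Cadps2 had 1822, 2839 and 2906 in the Sox6+ libraries, against 1059, 2591 and 804 in the Sox6- libraries, so Sox6- library 825 lay within the Sox6+ range and the other 2 Sox6- libraries below it. The log2 differences of Cadps and Cadps2 were 0.40 and 0.92, with adjusted p-values of 0.451 and 0.465 by limma.

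In the active zone, Bsn was the 1 scaffold gene of 8 whose groups did not overlap. All its Sox6+ libraries lay above all Sox6- libraries, as for 7.86% of all tested genes, with 9.19% in the other direction. No scaffold passed the threshold of limma (0 of 8, with 2 at an unadjusted p under 0.05, 0 called by edgeR and 1 by DESeq2 on the recovered reads). Of all tested genes, 11.4% had an unadjusted p under 0.05, and DESeq2 called 1.31% of all its tested genes higher and 1.66% lower. Bsn encodes Bassoon, a very large scaffold protein that helps to guide vesicles to release sites. It had 275, 966 and 481 in the Sox6+ libraries, against 203, 167 and 142 in the Sox6- libraries. The highest value was that of Sox6+ library 825, which also had the high sum of macrophage and microglia markers given above. That sum was mostly Lyz2, and 11 of the 15 markers had a read there. The part of macrophages in the Bsn value was not tested. Without that library, the log2 difference was 1.10, against 1.57 (SE 0.42) with it, and the adjusted p by limma was 0.325 without it and 0.200 with it. In the authors' deposited table the adjusted p of Bsn was 0.00655.

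Pclo, which encodes the related scaffold Piccolo, hardly varied: it had 1477, 1813 and 1790.0 in the Sox6+ libraries, against 1632, 1636 and 1625 in the Sox6- libraries. Its log2 difference was 0.05 (95% interval -0.28 to 0.38). Rims1 and Rims2 encode RIM proteins, which tether calcium channels and vesicles. Rims2 had 432, 139 and 212 in the Sox6+ libraries, against 487, 558 and 418 in the Sox6- libraries, so the Sox6+ library 103 lay within the Sox6- range and the other 2 below it, and its adjusted p was 0.347 by limma. Rims1 had a log2 difference of 0.03 (SE 0.42). Erc2, an ELKS scaffold of the active zone, had 1022, 2587 and 2311 in the Sox6+ libraries, against 735, 1601 and 649 in the Sox6- libraries, with Sox6- library 825 inside the Sox6+ range. Erc1, Rims3 and Rimbp2 differed by -0.19 (SE 0.33), 0.36 (SE 0.63) and -0.61 (SE 0.80) on the log2 scale.

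Both tested complexins, which clamp and promote SNARE-driven fusion, had all Sox6+ libraries above all Sox6- libraries. This held for 2 of the 7 tested SNARE and complexin genes, against 7.86% of all tested genes. Limma called 0 of the 7 tested SNARE and complexin genes, 3 had an unadjusted p under 0.05, edgeR called 0 and DESeq2 on the recovered reads 2. The share of all tested genes at an unadjusted p under 0.05 was 11.4%. DESeq2 called 1.31% of all its tested genes higher and 1.66% lower. Cplx1 had 14340.1, 43416 and 28565 in the Sox6+ libraries, against 7015, 8162 and 4059 in the Sox6- libraries. Its spread was wide within both groups, with the highest value in Sox6+ library 825, and it had a log2 difference of 2.09 (SE 0.45), with an adjusted p of 0.177 by limma and 3.04e-07 in the authors' deposited table. By DESeq2 on the recovered reads, the adjusted p of Cplx1 was 0.00150, larger than the deposited one. Without Sox6+ library 825, the log2 difference was 1.72. Cplx2 had 849, 1143 and 936 in the Sox6+ libraries, against 520.0, 269 and 279 in the Sox6- libraries. Here the Sox6+ libraries were closer together, and the result was a log2 difference of 1.51 (SE 0.28), with an adjusted p of 0.0675 by limma and 4.02e-04 in the authors' deposited table.

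Of the SNARE genes, Snap25 and Vamp2 were far more abundant per kilobase than Stx1a and Vamp1. Snap25, a plasma membrane SNARE, ranked first per kilobase, at 11759 per kb in Sox6+ neurons and 9519 per kb in Sox6- neurons, and made up 29.6% to 43.2% of the members' summed value in a library. It had 87156, 77551 and 74855 in the Sox6+ libraries, against 85309, 54230.3 and 54383 in the Sox6- libraries, with Sox6- library 103 inside the Sox6+ range. Vamp2, the main vesicle SNARE, lay at 2604 per kb in Sox6+ neurons and 2046 per kb in Sox6- neurons, and Stx1a and Vamp1 at 171 and 22.3 per kb in Sox6+ neurons and 235 and 42.9 per kb in Sox6- neurons. As a normalized count, Vamp2 had 8244, 10885 and 10623 in the Sox6+ libraries, against 7137, 8404 and 7834 in the Sox6- libraries. Here Sox6+ library 103 lay within the Sox6- range. The log2 difference of Vamp2, 0.34, had an unadjusted p of 0.0427 and an adjusted p of 0.420 by limma. Stx1a, a plasma membrane SNARE, had a log2 difference of -0.49, Vamp1 of -0.98 and Stxbp5, which encodes the inhibitor tomosyn, of -1.15. These genes had overlapping groups. Nsf and Napb, which take SNARE complexes apart after fusion, had log2 differences of -0.14 and 0.15. Limma, edgeR and DESeq2 each called 0 of these 2. Neither had an unadjusted p under 0.05 by limma, where 11.4% of all tested genes did.

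**Figure D2:**
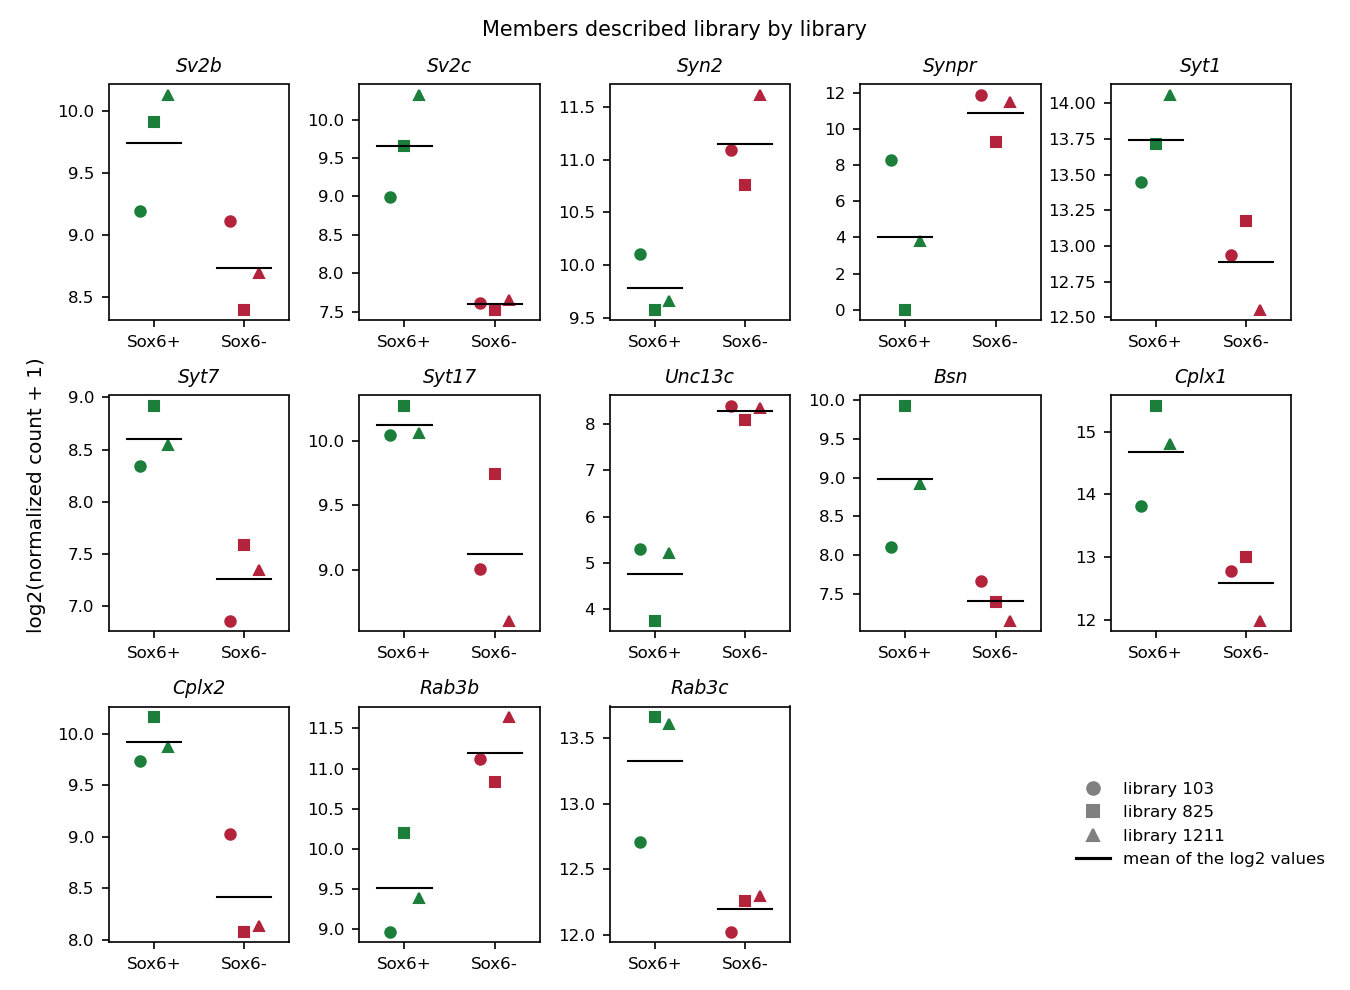
Log2(normalized count + 1) of the 13 members whose groups did not overlap, in each library, with Sox6+ left of Sox6- in every panel, symbols for the library numbers and lines for the mean of the log2 values. Sv2b, Sv2c, Syt1, Syt7, Syt17, Bsn, Cplx1, Cplx2 and Rab3c were higher in all Sox6+ libraries, and Syn2, Synpr, Unc13c and Rab3b were lower.

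The Rab3 GTPases sit on synaptic vesicles and couple them to effectors such as RIM and rabphilin, and 2 of these paralogs stood on opposite sides. Limma called 0 of the 4 genes of the Rab3 cycle, 2 had an unadjusted p under 0.05, edgeR called 0, and DESeq2 on the recovered reads called 2. Among all tested genes, 11.4% had an unadjusted p under 0.05, and DESeq2 called 1.31% of all its tested genes higher and 1.66% lower. Rab3b (ENSMUSG00000003411.10, chromosome 4, 108879063 to 108943324, plus strand, GRCm38) had 499, 1169 and 668 in the Sox6+ libraries, against 2229, 1829 and 3191 in the Sox6- libraries. Rab3c (ENSMUSG00000021700.10, chromosome 13, 110054187 to 110280996, minus strand, GRCm38) had 6674, 12892 and 12437 in the Sox6+ libraries, against 4175, 4918 and 5035 in the Sox6- libraries. Thus every Sox6+ library was below every Sox6- library in Rab3b and above every Sox6- library in Rab3c. Such a separation was found downward for 9.19% of all tested genes and upward for 7.86%. Rab3b had a log2 difference of -1.69 (SE 0.32), with an adjusted p of 0.0882 by limma and 1.00e-04 in the authors' deposited table. Rab3c had a log2 difference of 1.12 (SE 0.24), with an adjusted p of 0.117 by limma and 1.95e-04 in the authors' deposited table. Without Sox6+ library 825, the log2 differences were -2.02 for Rab3b, with an adjusted p of 0.0528 by limma, and 0.96 for Rab3c, with an adjusted p of 0.250.

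The windows around the starts of these paralogs (Rab3b chr4:108878820-108879119, plus strand, and Rab3c chr13:110280157-110280456, minus strand, RefSeq on GRCm38.p6) are given side by side because their genes differed in opposite directions, with CG dinucleotides in capitals.
Rab3b: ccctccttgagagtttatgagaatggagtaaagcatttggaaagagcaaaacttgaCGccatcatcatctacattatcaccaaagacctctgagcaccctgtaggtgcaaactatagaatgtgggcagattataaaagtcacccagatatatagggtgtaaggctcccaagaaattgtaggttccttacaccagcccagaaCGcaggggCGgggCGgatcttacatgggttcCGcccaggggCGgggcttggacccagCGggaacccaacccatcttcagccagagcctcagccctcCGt
Rab3c: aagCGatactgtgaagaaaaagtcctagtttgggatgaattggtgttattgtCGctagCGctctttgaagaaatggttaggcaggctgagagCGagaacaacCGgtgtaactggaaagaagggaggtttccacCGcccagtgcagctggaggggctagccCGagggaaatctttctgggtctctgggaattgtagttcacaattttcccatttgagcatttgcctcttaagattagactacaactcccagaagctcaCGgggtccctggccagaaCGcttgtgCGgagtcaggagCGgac
The Rab3b window holds 8 CG dinucleotides and the letters ACAAT 1 time, counting both strands. The Rab3c window holds 11 CG dinucleotides and these letters 3 times. The GENCODE start of Rab3c, the higher coordinate given above, lies upstream of the window around its RefSeq start, so by GENCODE that window falls inside the gene. A match of 5 letters is a description and not a binding site.

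Rab3a, the most abundant Rab3 gene, had 17780.1, 21716 and 21309 in the Sox6+ libraries, against 17556, 19026 and 18858 in the Sox6- libraries, a log2 difference of 0.13 (95% interval -0.14 to 0.40). Rph3a, which encodes the effector rabphilin, had 398, 585 and 477 in the Sox6+ libraries, against 379, 578 and 235 in the Sox6- libraries, and its groups overlapped.

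Within some families the paralogs made up different shares of the family's level per kilobase in the 2 groups. A share is taken within a library, so the library's scaling cancels. Sv2c made up, of the summed SV2 level, 16.4%, 13.2% and 21.8% in the Sox6+ libraries, against 6.19%, 6.04% and 5.22% in the Sox6- libraries. It averaged 17.1% ± 4.37 in Sox6+ neurons and 5.82% ± 0.523 in Sox6- neurons (SD, n = 3 each), a difference of 11.3 percentage points with an exact 2-sided permutation p of 0.1, the smallest that 3 libraries against 3 can give. Unc13c made up, of the summed Munc13 level, 25.6%, 17.2% and 21.3% in the Sox6+ libraries, against 84.7%, 65.7% and 77.2% in the Sox6- libraries. It was thus the leading Munc13 transcript in every Sox6- library and Unc13a in every Sox6+ library. It averaged 21.4% ± 4.21 in Sox6+ neurons and 75.9% ± 9.55 in Sox6- neurons (SD, n = 3 each), a difference of -54.5 percentage points with the same exact permutation p of 0.1. Both shares were computed from genes whose groups were already known to differ, and they add the size and not an independent test.

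Syn2 made up, of the summed synapsin level, 20.6%, 13.1% and 16.7% in the Sox6+ libraries, against 33.7%, 29.2% and 35.5% in the Sox6- libraries, with Syn1 the leading synapsin in all 6 libraries. Among Rab3 genes, Rab3a made up 86.5% to 92.0% in every library, and the minor paralogs changed places. Rab3c per kilobase over Rab3b per kilobase was 3.91, 3.22 and 5.44 in the Sox6+ libraries, against 0.548, 0.787 and 0.461 in the Sox6- libraries, so the ratio was above 1 in all Sox6+ libraries and below 1 in all Sox6- libraries. Unc13c per kilobase over Unc13a per kilobase was 0.437, 0.259 and 0.343 in the Sox6+ libraries, against 5.84, 3.15 and 4.11 in the Sox6- libraries, also on opposite sides of 1. Other families had shares that overlapped between the groups. The share of Cplx1 among both complexins was 97.4% to 98.8% in Sox6+ libraries and 96.8% to 98.6% in Sox6- libraries, and the shares of Syt7 beside Syt1, Cadps2 beside Cadps, Vamp1 beside Vamp2, and the Erc and Rims genes also overlapped.

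**Figure D3:**
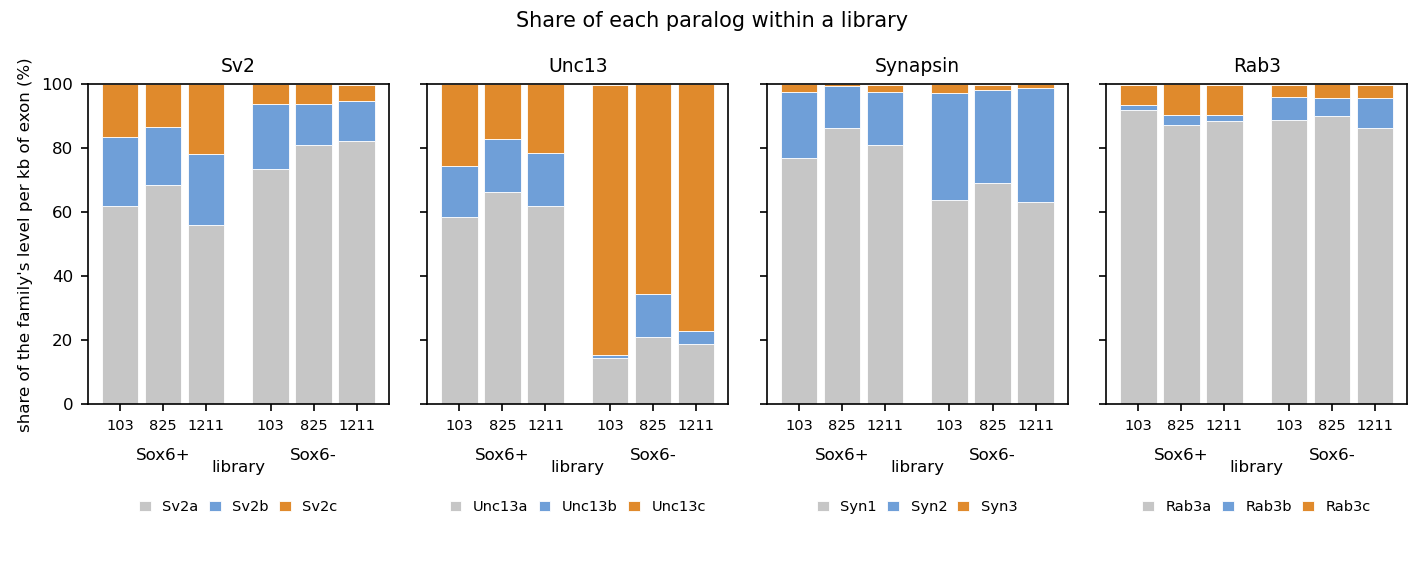
Share in percent of each paralog in its family's level per kilobase of exon, by library, with Sox6+ libraries left of Sox6- libraries. Unc13c takes 17.2% to 25.6% of the Munc13 level in Sox6+ libraries and 65.7% to 84.7% in Sox6- libraries, while Rab3a leads its family in all 6.

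Of the summed values of all genes, the 46 members together held 1.82%, 2.22% and 2.04% in the Sox6+ libraries and 1.76%, 1.55% and 1.56% in the Sox6- libraries. The groups did not overlap in this sum. Without Snap25 the share was 1.06%, 1.56% and 1.42% in the Sox6+ libraries and at most 1.07% in the Sox6- libraries, so that Sox6+ library 103 no longer lay above all of them. Libraries of one group were not alike over the members. The median absolute deviation of a library from the members' mean log2 values was 0.616 in Sox6+ library 825 and 0.288 to 0.388 in the other 5. That library held the lowest value of all 6 for 12 of 45 members, among them Syn2, Synpr, Syt2, Doc2b, Unc13c, Rims2 and Stxbp5, and the highest for 18, among them Bsn, Cplx1, Cplx2, Syt7, Rab3c and Erc2. The dopaminergic marker sum given above was also highest there, and the GABAergic sum lowest, and their part in these values was not tested.

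**Figure D4:**
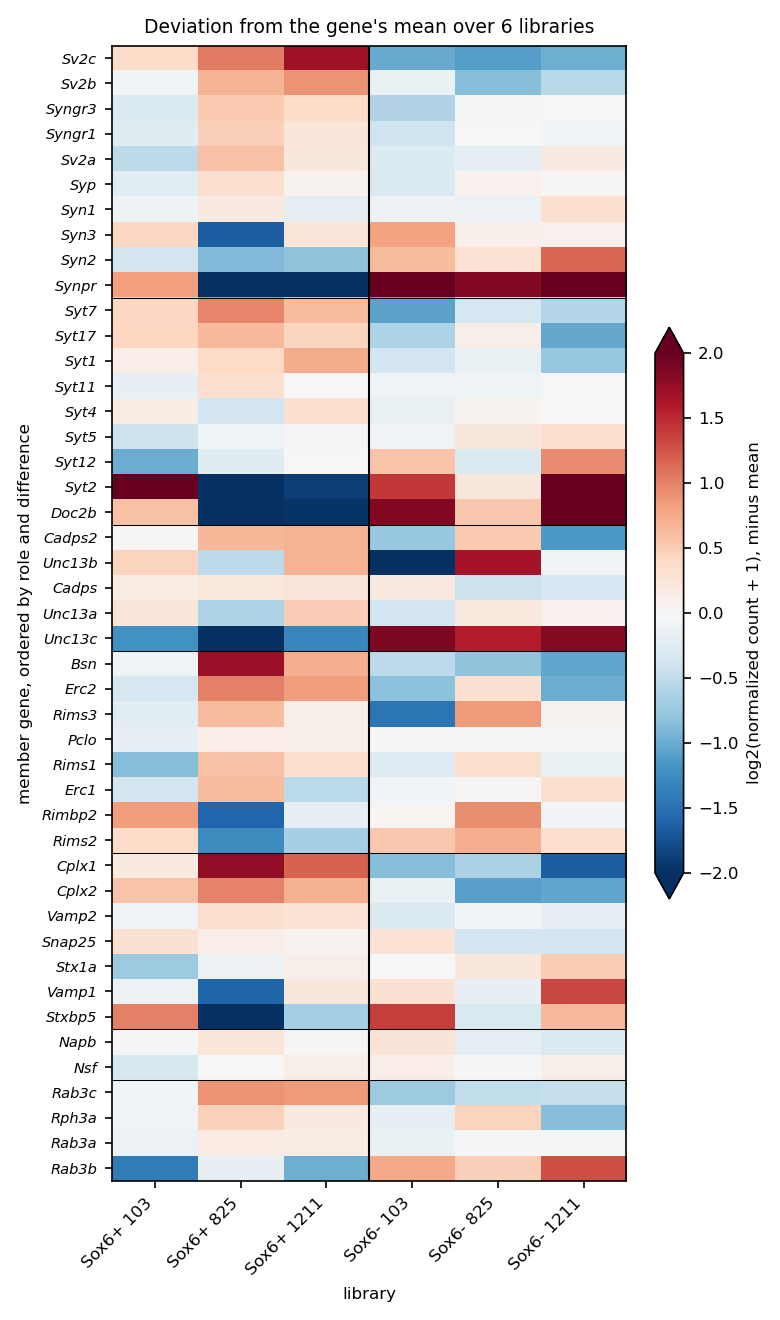
Deviation of each tested member in each library from the gene's mean of log2(normalized count + 1) over the 6 libraries, with Sox6+ libraries in the left columns, Sox6- libraries in the right columns, red above and blue below the mean, and the colour scale ending at 2 in both directions. Sv2c, Bsn and Cplx1 turn from red or near white to blue across the line between the groups, Unc13c and Rab3b from blue to red, and Sox6+ library 825 holds the strongest colours in several rows.

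Lists of neighbouring genes of the same pathway were examined beside the members. DESeq2 on the recovered reads called 1.31% of all its tested genes higher and 1.66% lower. Of the other release genes, 41 of 49 were tested, and limma called 0. At an unadjusted p under 0.05 it was 4 of 41, against 11.4% of all tested genes, and the median log2 difference was -0.09. EdgeR called 0 and DESeq2 on the recovered reads 1. The authors' deposited table gave 2 of the 42 with an adjusted p as lower in Sox6+ neurons, against 1.58% of all genes with one. Doc2a, a calcium sensor related to Doc2b, had 65.1, 35.3 and 116 in the Sox6+ libraries, against 216, 268 and 531 in the Sox6- libraries, with an adjusted p of 0.117 by limma and 0.00260 in the authors' deposited table. Syt10, a synaptotagmin known for IGF-1 secretion in the olfactory bulb, had 60.2, 21.6 and 56.4 in the Sox6+ libraries, against 180.4, 118 and 174 in the Sox6- libraries, with 0.190 by limma and 0.0417 in the authors' deposited table. Both genes were among 5 of the 41 with every Sox6+ library below every Sox6- library, against 9.19% of all tested genes. In the other direction it was 0 of 41, against 7.86%.

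Of 27 genes of vesicle endocytosis, 26 were tested, and limma called 0. At an unadjusted p under 0.05 it was 4 of 26, against 11.4% of all tested genes, and the median log2 difference was 0.15. EdgeR called 0 and DESeq2 on the recovered reads 1. Sh3gl3, an endophilin, had 539, 638 and 659.8 in the Sox6+ libraries, against 885, 1085 and 1138 in the Sox6- libraries, with an adjusted p of 0.150 by limma and 0.0125 in the authors' deposited table. It was among 3 of the 26 with every Sox6+ library below every Sox6- library, against 9.19% of all tested genes. In the other direction it was 4 of 26, against 7.86%. Of 23 genes of vesicle transporters and the proton pump, 22 were tested, and limma called 0. At an unadjusted p under 0.05 it was 5 of 22, against 11.4% of all tested genes, and the median log2 difference was 0.12. EdgeR called 0 and DESeq2 on the recovered reads 1. Slc18a2, the vesicular monoamine transporter that loads dopamine into vesicles, is also among the 14 dopaminergic markers. It had 13768, 18436 and 21200.0 in the Sox6+ libraries, against 4509.9, 10597 and 4280.1 in the Sox6- libraries. Its adjusted p was 0.171 by limma and 6.55e-04 in the authors' deposited table. By DESeq2 on the recovered reads the adjusted p of Slc18a2 was 0.0811, so the 1 gene called was not Slc18a2. Slc17a6, a vesicular glutamate transporter, had 873, 163 and 764 in the Sox6+ libraries, against 2496, 2237 and 4815 in the Sox6- libraries, with 0.266 by limma and 0.0438 in the authors' deposited table. Slc18a2 was higher in every Sox6+ library than in any Sox6- library, as were 4 of the 22 in all, against 7.86% of all tested genes. Slc17a6 was lower in every Sox6+ library, as were 2 of the 22 in all, against 9.19%.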

How the data were processed

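Poly(A) RNA of sorted SNc neurons was sequenced from stranded TruSeq libraries, per the labels' protocols. STAR, HTSeq, DESeq2, cutadapt and FastQC are named, without versions, in the submitters' processing notes, as are GRCm38 and mm10. In the deposited table, the signal of a library is its number of reads over a size factor: 100% of nonzero values were whole multiples of 1 step (tolerance 0.01 reads). The authors also deposited their DESeq2 results, namely a log2 ratio of Sox6- over Sox6+ (opposite in sign to the differences given here), its standard error, a test statistic (score), a p-value and the adjusted p-value.

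Groups came from the sample titles. Genes with a mean of at least 10 were tested with limma (trend and robust moderation) on log2(value + 1), with no block, on the whole table, and log2 differences are Sox6+ minus Sox6-. The pseudocount of 1 shrinks differences of low genes, but a value of 0 in 1 library can enlarge their mean log2 difference. Syt2 had a log2 difference of -2.65 but a ratio of means of 0.48, Sox6+ over Sox6-. On the recovered reads, edgeR called 6 genes in all and DESeq2 387. The 95% intervals are limma's. Settings varied were a block for the library number, a pseudocount of 0.5 or 8, no filter or a mean of at least 50, TMM and quantile scaling, no trend or robust moderation, edgeR, DESeq2, and leaving out each library. The members, the 3 neighbouring pathway lists and the 6 marker lists were chosen with earlier results of these data known. Values in each library are given for members whose groups did not overlap or that passed a test, and for further members as examples chosen after their values were seen. Exon lengths and gene positions are from GENCODE M21, and promoter windows from RefSeq, whose gene starts can differ. Software was limma 3.58.1, DESeq2 1.42.0 and edgeR 4.0.16 in R 4.3.3, and pandas 2.3.3 and scipy 1.17.1 in Python 3.11.15.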

Additional observations from a re-analysis of the deposited data

How the results depend on the processing

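No setting reversed the direction of any of the 13 members given library by library. Over 17 alternatives, their 221 values kept the side of the threshold 179 times, gained a call 28 times and lost one 14 times, the losses being Sv2c (8) and Unc13c (6). No scaling moved the median of all genes by 0.1 on the log2 scale. The calls depended on the tool and on single libraries, and the cause was not tested. Counts for 4 results follow, namely all genes higher, all genes lower, members higher and members lower in Sox6+ neurons, in this order. By limma as reported they were 17, 23, 1 and 1. With DESeq2 they were 171, 216, 8 and 3, with edgeR 1, 5, 0 and 0 (13 members at an unadjusted p under 0.05), without the filter 7, 14, 0 and 1 (18 members), without trend or robust moderation 4, 20, 0 and 0 (14 members), with quantile scaling 30, 39, 2 and 2, and with a pseudocount of 8, 34, 35, 1 and 2. A mean of at least 50 gave 2 members lower. Leaving out single libraries gave 0 to 59, 1 to 102, 0 to 7 and 0 to 3. Without Sox6+ library 103, 7 members were higher and 3 lower; without Sox6+ library 1211, Sox6- library 825 or Sox6- library 1211, 0 members were called in either direction (14, 18 and 14 at an unadjusted p under 0.05).

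The Sv2c share differed by 16.02 percentage points when taken over reads without division by length, against 11.3 per kilobase, and by 8.95 to 13.3 without single libraries. That of Unc13c ranged from -59.6 to -50.1. With the library number as a replicate block, the counts were 134, 133, 5 and 2 by limma, and 63, 57, 2 and 2 by edgeR. Members called by limma with the block were Cplx2, Rab3c, Sv2c, Syt7, Syt17, Syn2 and Unc13c. The labels state no pairing, so the main fit had no block for the library number. Deviations of same-numbered libraries correlated by 0.268 (number 103), 0.172 (825) and 0.0789 (1211). Each Sox6+ library correlated best with its own number, a hint from the data and not from the design. Depth limits Syt2, Doc2b, Syt12, Rims3, Rimbp2 and Unc13b, whose mean counts were the lowest of the tested members.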
